A study of Triticum aestivum with 18 samples.

Results

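The probe sets described here are annotated as rbcL, the gene of the large subunit of Rubisco. Rubisco is the chloroplast enzyme that fixes carbon dioxide onto ribulose bisphosphate in the first step of the Calvin cycle, and its large subunit carries the catalytic site. In plants the large subunit is encoded in the chloroplast genome, whereas the small subunit, RbcS, is encoded in the nucleus. Rubisco is among the most abundant proteins of a leaf, and the rbcL transcript is among the most abundant chloroplast mRNAs.

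Members were all probe sets whose platform symbol, or a synonym of it in the gene table, was rbcL. They numbered 28 of the 61290 probe sets on the array. All 28 carried the symbol LOC100049018, which the gene table lists with the synonym rbcl and files under a nuclear chromosome. Which copies of the gene each probe set reads is not given in the sources used here. The names of 24 members begin with the same stem, and these are called here by the next number in the name, so that rbcL-72 is the probe set with 72 after the stem and the ending S1_at. The remaining 4 were Ta.24976.1.S1_x_at, Ta.14567.2.S1_at, Ta.3807.1.A1_at and TaAffx.128896.17.S1_s_at. The endings _x_at (4 members) and _s_at (1 member) are Affymetrix's marks for probes that can bind several transcripts, so members may share targets and are not independent readings of a gene. Bread wheat is hexaploid, and a probe set may not separate the copies on the subgenomes.

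RNA came from leaves of greenhouse plants at the 3-leaf stage, from 2 near-isogenic bread wheat lines. TXGBE273 is labelled resistant and TXGBE281 susceptible to the greenbug, a phloem-feeding aphid, here of biotype E. Leaves were taken at 0 h (labelled control), 24 h and 48 h after infestation, with 3 replicates in each of the 6 groups and 1 array per replicate. Groups are named R0, R24 and R48 for the resistant line and S0, S24 and S48 for the susceptible line, and values for 4 comparisons stand in the order R24 against R0, R48 against R0, S24 against S0 and S48 against S0. No uninfested plants of the later times were analysed here, so infestation and time since 0 h cannot be told apart. The labels do not say whether replicates were separate plants, so the p-values rest on a spread between arrays that may be technical. In whole leaves, fewer cells of a type and less RNA per cell cannot be told apart.

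The median signal of an array lay between 80.1 and 106.3. The tested leaf marker probe sets, for example those of phosphoribulokinase (PRK) and catalase (CAT1), numbered 10. At a limma adjusted p under 0.05, 8, 8, 7 and 8 were lower than at 0 h in the 4 comparisons. At that threshold 1, 1, 0 and 0 were higher. Of 11 tested grain storage protein probe sets, 1, 3, 1 and 2 were higher and 0, 0, 0 and 1 lower at the same threshold. Of all tested probe sets, 14.5%, 16.3%, 16.3% and 19.1% were lower and 17.6%, 17.4%, 17.1% and 17.8% higher. Both probe sets of an avenin-like gene (avnla) were higher by 6.01 and 6.02 on the log2 scale in S48 than in S0. They were also higher in R48 than in R0, by 2.165 and 2.61 (limma adjusted p = 0.0285 and 0.00599). In R24 and S24 neither reached an adjusted p under 0.05. The signal of the 18S ribosomal RNA control probe set was 24.1 to 254.7 in infested samples and 188.9 to 467.1 in 0 h samples. The 3′ minus 5′ log2 difference of the ubiquitin control, a measure of RNA integrity, stayed between -1.22 and -0.999 over the 18 arrays, with mean 5′ signals of 30890 to 63210 by group, among the brightest of the array. The same difference moved for dimmer controls. For actin it averaged -0.60 in R24, 0.14 in R48, -0.65 in S24 and -0.70 in S48, against 1.47 in R0 and 0.70 in S0, with SDs of 0.42 to 1.505. For GAPDH it averaged -1.997 in R24, -1.67 in R48, -1.56 in S24 and -1.29 in S48, against -0.89 in R0 and -1.47 in S0. Group means ran between -0.70 and 1.40 for EF1A, -3.22 and -2.18 for CYP86-TA, 1.30 and 1.80 for G-6-PDH, and 3.82 and 4.26 for Sucsyn. The part of these measures in the results below was not tested.

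The members spanned nearly the whole range of the array. Mean signals over the 18 arrays ran from 3.92 for the dimmest to 61570 for the brightest, although a signal depends on each probe set's own probes and does not rank amounts of RNA. A probe set was tested if it exceeded its array's 40th percentile in at least 3 arrays, which 20 members did. The other 8 were rbcL-37, rbcL-52, rbcL-53, rbcL-56, rbcL-82, rbcL-190, rbcL-229 and Ta.14567.2.S1_at, and their highest signal on any array was 103.9. Of the 20 tested members, 2 had mean signals over 10000, 7 lay between 200 and 10000, and 11 lay under 200.

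Of the 20 tested members, 7 to 11 were called lower after infestation, depending on the comparison, and on the deposited scale none was called higher than at 0 h. Changes were tested with limma on log2(signal + 16), which understates the change of dim probe sets, and "called" means a Benjamini-Hochberg adjusted p under 0.05 over all 46251 tested probe sets. In R24 against R0, 7 of 20 members were called lower, where 14.5% of all tested probe sets were lower and 17.6% higher. In R48 9 of 20 were lower (16.3% lower and 17.4% higher over all tested). In S24 11 of 20 were lower (16.3% and 17.1%), and in S48 10 of 20 (19.1% and 17.8%). These counts describe the tested members and not all 28, because the filter keeps a probe set that is bright in any group.

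The median log2 change of the tested members was -0.59, -0.80, -0.90 and -0.88 in the 4 comparisons, against -0.018, -0.0623, -0.0666 and -0.0768 for all tested probe sets. Changes were negative in 16, 18, 18 and 16 of the 20 members. All 3 infested samples lay below all 3 samples of 0 h in 7, 11, 13 and 11 members, against 20.9%, 22.5%, 22.6% and 25.9% of all tested probe sets, and above them in 0 members, against 22.4%, 21%, 21% and 22.4%. Within a line the later times share their 0 h arrays, so their comparisons are not independent of each other.

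The 7 brightest of the tested members were called lower in every comparison with 0 h: Ta.24976.1.S1_x_at, rbcL-1, rbcL-181, rbcL-72, TaAffx.128896.17.S1_s_at, rbcL-196 and rbcL-130. The next in brightness, rbcL-146, was lower in 3 comparisons, rbcL-126 in S24 and S48, 4 members in 1 each, and 7 members in none. Among the 9 members with mean signals of 200 or more, the only one never called was rbcL-16.

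The lowest mean change of all tested members, -3.15 over the 4 comparisons, was that of rbcL-72. Its signals were 8825, 4089 and 5861 in R0, 861.9, 1212 and 722.1 in R24, and 587.3, 855.3 and 1359 in R48. They were 6822, 6094 and 6401 in S0, 476.4, 486.9 and 320 in S24, and 569, 645.3 and 713.6 in S48. Every infested sample lay below every 0 h sample. Group means were 932 ± 252 in R24 and 934 ± 392 in R48, against 6258 ± 2393 in R0 (SD, n = 3 each). They were 428 ± 93.5 in S24 and 643 ± 72.3 in S48, against 6439 ± 366 in S0.

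On the log2 scale rbcL-72 changed by -2.69 in R24 (SE 0.27, limma adjusted p = 1.29e-07) and by -2.73 in R48 (adjusted p = 8.24e-08). It changed by -3.88 in S24 (adjusted p = 6.26e-10) and by -3.30 in S48 (adjusted p = 3.58e-09). As a ratio to 0 h these were 0.155, 0.150, 0.0677 and 0.102. They were below the 10th percentile of the 3839 tested probe sets of like brightness (mean log2 signal 10 to 11), which was -1.09, -1.21, -1.24 and -1.50. The calls held in all 116 alternative fits of the 4 comparisons, with log2 changes between -3.99 and -2.03.

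The brightest member, Ta.24976.1.S1_x_at, was also the brightest of all probe sets on 3 of the 18 arrays and ranked within the top 8 on every array. Its signals were 76030, 94880 and 89670 in R0, 58040, 58980 and 48940 in R24, and 59650, 64420 and 48290 in R48. They were 71820, 77320 and 65680 in S0, 51420, 50860 and 49050 in S24, and 49640, 45470 and 48120 in S48. Infested and 0 h samples did not overlap within a line, and the shift was small beside that of rbcL-72. The log2 changes were -0.65, -0.60, -0.50 and -0.58 (SE 0.11, limma adjusted p between 0.000127 and 0.00145).

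The second brightest member, rbcL-1, moved nearly as one with it. Its log2 changes were -0.66, -0.66, -0.47 and -0.58, and the log2 ratio of its signal to that of Ta.24976.1.S1_x_at stayed between -0.25 and -0.04 over the 18 arrays. Over those arrays the 2 profiles had a Pearson correlation of 0.99, and 0.96 after each group's mean was subtracted. Both carry the ending _x_at.

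The direction of this bright pair depended on the array scale. Under quantile normalization, which gives every array the same distribution, the log2 changes were 0.07, 0.07, 0.16 and 0.12 for Ta.24976.1.S1_x_at and 0.06, 0.0072, 0.14 and 0.10 for rbcL-1. Bright probe sets of other genes also had lower deposited signals after infestation. Of the 71 tested probe sets with a mean log2 signal of 15 or more, among them this pair, 87.3%, 87.3%, 81.7% and 87.3% were called lower, with median log2 changes of -0.67, -0.70, -0.61 and -0.74. The changes of the pair were thus near the median of probe sets of like brightness, and the part of the scale in them was not tested.

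Under quantile normalization, which does not cancel in a ratio within an array, rbcL-72 changed by -2.69, -2.73, -3.86 and -3.27. A factor common to all probe sets of an array does cancel between the deposited signals of rbcL-72 and Ta.24976.1.S1_x_at. The mean log2 ratio of the first signal to the second was -3.86 in R0 (range -4.54 to -3.11), -5.92 in R24 (-6.08 to -5.61) and -6.02 in R48 (-6.67 to -5.15). It was -3.47 in S0 (-3.67 to -3.36), -6.91 in S24 (-7.26 to -6.71) and -6.22 in S48 (-6.45 to -6.08). The ranges of infested and 0 h samples did not overlap in either line. Whether the signal of Ta.24976.1.S1_x_at, at the top of the range of every array, was limited by saturation was not tested, so the ratio does not give the difference in RNA.

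The other members of intermediate brightness had smaller changes than rbcL-72. The signals of rbcL-181 were 3404, 3398 and 3002 in R0, 1281, 1937 and 1743 in R24, and 1656, 1380 and 1795 in R48. They were 3436, 3252 and 2918 in S0, 1533, 1383 and 1080 in S24, and 1509, 1513 and 1446 in S48. The highest infested sample was below the lowest 0 h sample. Its log2 changes were -0.99, -1.02, -1.27 and -1.09 (limma adjusted p between 7.22e-07 and 1.79e-05), or ratios of 0.416 to 0.502. With arrays scaled to the spiked hybridisation controls, only its S24 call held. On that scale rbcL-181 changed by -0.34 in R24 (limma adjusted p = 0.226), -0.54 in R48 (adjusted p = 0.0515) and -0.36 in S48 (adjusted p = 0.182).

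For TaAffx.128896.17.S1_s_at the signals were 1075, 1320 and 1284 in R0, 1164, 778.8 and 573.1 in R24, and 351.7, 499.1 and 684.8 in R48. They were 1807, 1374 and 1416 in S0, 715.3, 694.2 and 660.8 in S24, and 554.6, 429.1 and 514 in S48. The R24 and R0 samples overlapped, whereas the infested samples lay below 0 h in the other 3 comparisons. The log2 changes were -0.59, -1.28, -1.12 and -1.58. The first had a limma adjusted p of 0.0469, and its call was lost in 19 of 29 alternative fits, among them those without R0 replicate 2 or 3 or R24 replicate 2 or 3. The log2 difference of 48 h minus 24 h was -0.69 between R48 and R24 (adjusted p = 0.0811) and -0.46 between S48 and S24 (adjusted p = 0.236), neither called.

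Replicates of rbcL-196 were close together, with signals of 889.4, 845.1 and 886.6 in R0, 605.3, 664.3 and 500.1 in R24, and 480.3, 625.3 and 476.8 in R48. They were 875.6, 867.7 and 754.5 in S0, 517.9, 546.6 and 449.8 in S24, and 522.2, 431.7 and 584.6 in S48. No infested sample reached the 0 h range of its line, and the log2 changes were among the smallest called, -0.56, -0.72, -0.71 and -0.69 (limma adjusted p between 0.000683 and 0.00603). With arrays scaled to the spiked hybridisation controls, none of these calls held.

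The changes of rbcL-130 were larger. Its means were 282 ± 80.4 in R24 and 299 ± 24.6 in R48, against 795 ± 155 in R0, and 259 ± 84.7 in S24 and 308 ± 113 in S48, against 621 ± 53.1 in S0 (SD, n = 3 each). Infested and 0 h samples did not overlap, and the log2 changes were -1.46, -1.35, -1.26 and -1.04 (limma adjusted p between 0.000209 and 0.0039). With arrays scaled to the spiked hybridisation controls, the S48 call of rbcL-130 was lost (-0.33, limma adjusted p = 0.368). For rbcL-146 the means were 314 ± 45.0 in R24 and 221 ± 101.3 in R48, against 591 ± 80.2 in R0, and 140 ± 53.3 in S24 and 217 ± 106 in S48, against 479 ± 142 in S0. It was called lower in R48, S24 and S48, whereas in R24 its log2 change of -0.88 had an adjusted p of 0.0674. Its S48 call was lost without S0 replicate 1 or 2 or S48 replicate 3, and on the scale of the hybridisation controls. Replicates of rbcL-16 spread widely, from 37.1 to 766.4 over the 18 arrays, and its log2 changes of -1.10, -1.65, -0.62 and -0.19 were not called.

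The 11 tested members with mean signals under 200 were measured with larger error. Their median SE was 0.56 on the log2 scale, against 0.27 for the 7 intermediate members and 0.12 for the bright pair. Of these 11, 0, 1, 3 and 2 were called lower in the 4 comparisons, where 14.5%, 16.3%, 16.3% and 19.1% of all tested probe sets were. Dim probe sets were called less often. From mean log2 signals of 5 to 6 up to 7 to 8, the range of these 11, the share called lower rose with brightness. It rose from 4.79% to 12.9%, 5.49% to 15.2%, 5.02% to 16.7% and 5.42% to 19.5% in the 4 comparisons. Whether the counts of the 11 differ from these shares was not tested. The called changes were all -1.18 or below. The largest in S24 was that of rbcL-126, -2.27 (limma adjusted p = 0.000934), which was also lower in S48, -1.60 (adjusted p = 0.0128; lost without S0 replicate 2 or S48 replicate 1). The probe set with the stem number 15 and the ending S1_x_at changed by -2.31 in S48 (adjusted p = 0.00489). In R48 rbcL-38 changed by -1.81 (adjusted p = 0.0232), a call lost without R0 replicate 1 or 2 or R48 replicate 2 or 3. In S24 rbcL-42 changed by -1.18 (adjusted p = 0.0174; lost without S0 replicate 2 or S24 replicate 2 or 3) and rbcL-51 by -1.48 (adjusted p = 0.0481; lost in 21 of 28 alternative fits).

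The highest mean change of the tested members, 0.23, was that of Ta.3807.1.A1_at. Its signals were 148.5, 68.9 and 77.1 in R0, 158.8, 117 and 148.3 in R24, and 228.6, 128.2 and 110.3 in R48. They were 112, 192.4 and 93.0 in S0, 99.9, 114.9 and 74.4 in S24, and 161.1, 114.5 and 160.3 in S48. Infested and 0 h samples overlapped in both lines. The log2 changes were 0.52, 0.59, -0.36 and 0.16, none of them called (limma adjusted p between 0.193 and 0.757).

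Between 48 h and 24 h no member was called by limma in either line, where 5.17% of all tested probe sets were called between R48 and R24 and 10.1% between S48 and S24. At an unadjusted p under 0.05, 1 member passed in each, as did 8112 and 9920 of all 46251 tested probe sets. For rbcL-72 the log2 difference of 48 h minus 24 h was -0.05 for R48 against R24 (95% interval -0.61 to 0.51) and 0.59 for S48 against S24 (0.03 to 1.15, limma adjusted p = 0.205).

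The lines were also compared with each other at each time. At 0 h no member was called by limma, against 0.0216% of all tested probe sets. There 4 members passed an unadjusted p under 0.05, as did 3183 of all 46251 tested probe sets. At 24 h 1 of 20 members was called, rbcL-72, where 5.15% of all tested probe sets were called in either direction. Its means of 932 ± 252 in R24 and 428 ± 93.5 in S24 (SD, n = 3 each) gave a log2 difference of 1.09 (limma adjusted p = 0.0189), and the lowest R24 sample was above the highest S24 sample. The call was lost without R24 replicate 2 (0.88, adjusted p = 0.122), without S24 replicate 3 (0.90, adjusted p = 0.126) and without the variance trend (adjusted p = 0.08). At 48 h no member was called, against 12.1% of all tested probe sets. An unadjusted p under 0.05 was reached by 1 member and by 10702 of all 46251 tested probe sets.

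Whether the change from 0 h differed between the lines was tested as an interaction with limma. No member was called at 24 h (1.6% of all tested probe sets were) or at 48 h (5.05%). An unadjusted p under 0.05 was reached by 3 members at 24 h and 1 at 48 h. Of all 46251 tested probe sets, 5490 and 8171 reached it. For rbcL-72 the resistant minus susceptible difference in the log2 change was 1.196 at 24 h (95% interval 0.40 to 1.99, adjusted p = 0.15) and 0.56 at 48 h (-0.23 to 1.35, adjusted p = 0.493). For Ta.24976.1.S1_x_at it was -0.15 (-0.48 to 0.19) and -0.02 (-0.35 to 0.32).

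Other array scales moved the counts. As deposited, every array had the same trimmed mean signal. Centring each array on its median moved the median change over all tested probe sets, on the log2 scale, to 0.168, 0.152, 0.181 and 0.123, and scaling to the spiked hybridisation controls shifted it to 0.547, 0.343, 0.321 and 0.559. On the control scale 2, 4, 6 and 3 members were called lower, where 5.13%, 7.26%, 7.86% and 7.65% of all tested probe sets were, and 1, 1, 0 and 0 higher, where 35.9%, 28%, 26.8% and 37% were. The higher one was Ta.3807.1.A1_at, by 1.08 (limma adjusted p = 0.0213) in R24 and 0.99 (adjusted p = 0.04) in R48. Relative to the median of all tested probe sets, the rbcL median on that scale was -0.55, -0.76, -0.87 and -0.82. As deposited it was -0.58, -0.73, -0.84 and -0.81. A common factor per array shifts nearly all log2 values alike, so these differences were bound to stay close and test nothing. On the control scale rbcL-72 changed by -2.03, -2.26, -3.43 and -2.57, and Ta.24976.1.S1_x_at by 0.0117, -0.12, -0.05 and 0.15.

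Members were also compared by their profiles from array to array. Over 190 pairs of tested members the median Pearson correlation across the 18 arrays was 0.35 (range -0.43 to 0.99). It was 0.79 over the 36 pairs of the 9 brighter members and 0.14 over the 55 pairs of the 11 dimmer ones. After each group's mean was subtracted, the median over those 36 pairs was -0.03 (range -0.61 to 0.96). Within groups it was highest for the bright pair, followed by rbcL-130 with rbcL-146 (0.68) and by rbcL-196 with rbcL-1 (0.65) and with Ta.24976.1.S1_x_at (0.61). The arrays fall into infested and 0 h groups, so these correlations describe the profiles and test nothing.

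The member most like rbcL-72 was rbcL-181 (Pearson correlation 0.96 over 18 arrays), and probe sets of other genes were as close. The highest among named genes were CL9, a ribosomal protein L9 gene (0.97), 3 probe sets of Prx1 (0.96 each) and PEAMT1, which encodes a phosphoethanolamine methyltransferase (0.95). The log2 changes of CL9 were -2.99, -3.30, -3.61 and -3.63. Of the probe sets with no symbol, Ta.7863.1.S1_x_at, TaAffx.76521.1.S1_at and Ta.495.1.S1_x_at reached 0.98. Among named genes, the median profile of the 20 tested members was most like lgul, a lactoylglutathione lyase gene (0.93), a tubulin probe set (TUB, 0.93), Prx1 (0.93), FBP (0.93) and CL9 (0.92). Probe sets with no symbol were closer still, led by Ta.25176.1.S1_at (0.97), Ta.12139.1.S1_at (0.97) and Ta.8726.1.S1_s_at (0.96).

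The stem shared by 24 members is also carried by 35 probe sets that the annotation does not tie to rbcL, and 27 of these were tested. In the 4 comparisons 8, 8, 8 and 7 of the 27 were called lower and 1, 1, 2 and 2 higher. Of all tested probe sets, 14.5%, 16.3%, 16.3% and 19.1% were lower and 17.6%, 17.4%, 17.1% and 17.8% higher. Some of the 27 were bright, with mean 0 h signals of up to 54690, and the part of brightness was not tested. The median log2 changes of the 27 were -0.42, -0.54, -0.45 and -0.57. These were smaller in size than the rbcL medians of -0.59, -0.80, -0.90 and -0.88, a difference that was not tested.

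Most tested probe sets of the same pathway were called lower too, as were most of the brightest probe sets of any kind. Of 4 tested Calvin cycle probe sets, 3 were called lower in every comparison: those of phosphoglycerate kinase (Pgk-1), phosphoribulokinase (PRK) and the brighter of 2 of fructose-bisphosphatase (FBP). PRK, which makes the substrate that Rubisco carboxylates, had log2 changes of -1.76, -1.73, -2.07 and -2.34. Pgk-1 had changes of -2.17, -1.82, -2.66 and -1.87, and the brighter FBP probe set had -2.34, -2.71, -2.47 and -3.21. The dim FBP probe set was not called. The 3 called were bright, with mean 0 h signals of 18660 (FBP) to 58290 (PRK). Of the 100 brightest probe sets at 0 h, 98 were not rbcL. In the 4 comparisons 98, 98, 96 and 97 of these were called lower, with median log2 changes of -0.91, -1.01, -0.94 and -1.26. They were picked by their 0 h signals, which tilts a comparison with the same arrays toward lower, so these counts test nothing. Picked instead by the mean over all 18 arrays, 71 probe sets, 2 of them rbcL, had a log2 signal of 15 or more. Of these 71, 87.3%, 87.3%, 81.7% and 87.3% were called lower, with median log2 changes of -0.67, -0.70, -0.61 and -0.74. The part of brightness in the changes of the pathway was not tested.

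Of 5 tested probe sets for nuclear genes of the photosystems and of electron transport, 4 were called lower in every comparison. These 4 were also bright, with mean 0 h signals of 51880 to 68780, and the part of brightness was not tested. PsbP of the oxygen-evolving complex, listed as OEE2, changed by -0.94, -1.05, -1.03 and -1.45 in its brighter probe set and by -1.39, -1.75, -1.83 and -2.55 in the other. The bright probe set of petC, the Rieske iron-sulfur subunit of the cytochrome b6f complex, changed by -0.90, -0.97, -0.89 and -1.22. The exception, a dim probe set of petC (mean signal 11.7 at 0 h), was higher in R24 by 2.07 and in R48 by 1.75, and was not called in S24 (1.13) or S48 (1.004). For other chloroplast-encoded genes the annotation gave 1 match, a gene with atpA among its synonyms, whose probe set did not exceed a signal of 36.1 and was not tested. No probe set carried a symbol for the Rubisco small subunit or Rubisco activase, so these were not analysed here.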

How the data were processed

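The values analysed are MAS5 intensities deposited by the authors, per the submitters' processing notes, which give no version. The mean intensity with 2% trimmed at each end was 500.1 in every array, so arrays had been scaled before deposit. Detection calls and a genome assembly are not given there.

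Signals were taken as log2(signal + 16) with no further normalization. The 111 control probe sets were left out, and 46251 of the rest exceeded their array's 40th percentile in 3 or more arrays. Using limma 3.58.1 (R 4.3.3, variance trend), all 18 arrays were modelled by 6 group means. Each of 11 comparisons was adjusted over all tested probe sets by the Benjamini-Hochberg method; the script was tested on simulated data. Precision is limited by the small number of arrays.

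The platform annotation, which is old, names a symbol for 1273 probe sets and none for 60017; synonyms came from the IWGSC CS RefSeq v2.1 gene table. Numbered members are TaAffx.128414 probe sets ending S1_at, such as TaAffx.128414.72.S1_at, except TaAffx.128414.1.A1_x_at, TaAffx.128414.15.S1_x_at, TaAffx.128414.190.A1_at and TaAffx.128414.229.A1_x_at. Values in every array are given for the probe set named in the rule, the brightest, and those of lowest and highest mean change, with other members added as examples after their values were seen; likeness names the 5 named and 3 unnamed probe sets of highest Pearson correlation, and lists name at most 4 genes each. Members, lists and tests were chosen with earlier results of these data known. Alternatives were other array scales, offsets, filters and variance settings, a replicate block, and leaving out each array. No sequences are shown.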

Additional observations from a re-analysis of the deposited data

Results flagged for a closer look

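The untested member Ta.14567.2.S1_at was higher in R24 than in R0 by 1.48 on the log2(signal + 16) scale, with signals of 49.1, 59.8 and 42.0 in R24 and 18.9, 4.75 and 2.27 in R0. It drew attention because it lay outside the tested probe sets and the groups did not overlap. Of all tested probe sets, 22.4% lay above 0 h without overlap in R24, and 22.4% in S48. With the filter on low signals left out, 1 of 28 members, not identified here, was called higher in R24. So were 7798 of all 61179 probe sets. Another untested member, rbcL-229, was higher by 0.11 in S48 than in S0 on the same log2 scale, again without overlap. Its signals were 3.22, 4.78 and 2.72 in S48 and 2.53, 2.19 and 1.64 in S0, among the lowest of the array.

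In 2 tested members, at 1 time each, every sample of one line lay above its mean log2 signal at 0 h and every sample of the other line below its own. How many of all tested probe sets had this pattern was not counted, so 2 members cannot be called many or few. For Ta.3807.1.A1_at this was at 24 h, with the resistant line above, and for rbcL-44 at 48 h, with the susceptible line above. For Ta.3807.1.A1_at the interaction of line and infestation at 24 h was 0.88 (limma adjusted p = 0.489), and for rbcL-44 at 48 h it was -0.76 (adjusted p = 0.666). Neither difference between the lines was called.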

How the results depend on the processing

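The counts of rbcL members called stayed within 1.5 times those reported with quantile normalization, with median centring, with offsets of 1 or 64, with no filter or one at the 60th percentile, and with a fit to the compared arrays only. The hybridisation control scale gave 3, 5, 6 and 3 calls in the 4 comparisons with 0 h, 1 between R48 and R24, and 2 between R24 and S24. On it 1202 of all 46251 tested probe sets were called between R48 and R24, and 1707 between R24 and S24. For R24 against S24, no variance trend gave 0 calls, array weights 2 and the replicate block 2. Of all 46251 tested probe sets, these fits called 1544, 3641 and 2475. Whether replicate numbers pair the samples is not settled by these values. Of 27 same-number pairs, 0 had a correlation of deviations over 0.1 (range -0.03 to 0.06). The same number was the best match of its sample in 15 of the 27, with 3 candidates each. The replicate block gave 7, 10, 10 and 10 calls in the 4 comparisons with 0 h.

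Leaving out 1 array at a time gave 6 to 7, 8 to 10, 9 to 11 and 8 to 10 calls in the comparisons with 0 h, 0 to 1 between R48 and R24, 0 to 0 between S48 and S24, 0 to 0, 0 to 2 and 0 to 2 between the lines at 0 h, 24 h and 48 h, and 0 to 0 in both interactions. The 2 calls between R48 and S48 came without R48 replicate 3. The 2 calls between R24 and S24 came without S24 replicate 2 or S48 replicate 3. The 1 call between R48 and R24, TaAffx.128896.17.S1_s_at, came without R24 replicate 3 (-0.925, limma adjusted p = 0.0263) or R48 replicate 3 (-0.915, adjusted p = 0.0287).

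Called changes turned sign on 2 scales. Quantile normalization gave 0.0695, 0.0695, 0.16 and 0.12 for Ta.24976.1.S1_x_at and 0.0624, 0.0072, 0.14 and 0.10 for rbcL-1. The hybridisation control scale gave, in R24 against R0, 0.0117 for Ta.24976.1.S1_x_at, 0.0032 for rbcL-1, 0.0572 for TaAffx.128896.17.S1_s_at and 0.0829 for rbcL-196, and, in S48 against S0, 0.15, 0.15 and 0.0303 for Ta.24976.1.S1_x_at, rbcL-1 and rbcL-196. Over all tested probe sets, R24 against R0 had 2371 lower and 16605 higher calls on that scale and 4968 and 10856 after median centring, compared with 6728 and 8144 as deposited. The cause was not tested. Signal near background limits what the dim members can show.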
